A study of Mus musculus with 61 samples.

Results

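The quadriceps, the large knee extensor of the thigh, was profiled by bulk RNA sequencing in mice depleted by design of regulatory T cells (Tregs) that either trained by exercise for 2 weeks or stayed sedentary. The libraries were chosen by their labels, as those of trained or sedentary Foxp3DTR+ quadriceps with no antibody, and they are 6 of the 61 libraries of the series. The trained Foxp3DTR+ group (3 libraries) and the sedentary Foxp3DTR+ group (3 libraries) carried the Foxp3-IRES-GFP.hDTR allele, in which the Treg gene Foxp3 also drives a human receptor for diphtheria toxin (DT). Both received DT, which kills cells that bear the receptor, so depletion is part of both groups by design. Trained Foxp3DTR- (3 libraries) and sedentary Foxp3DTR- (3 libraries) mice received DT without carrying the receptor and are used here to test where the response to training differed. A further 3 libraries of trained Foxp3DTR+ mice given DT and control IgG are quoted as values only. Age, strain, the form of training and the length of the depletion are not given in the labels of these groups. The groups are called DTR+ and DTR- from here on.

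Tregs are CD4 T cells that hold other lymphocytes in check, and in muscle they also act on the repair of fibres. Interferon-gamma, the product of activated T and NK cells, binds a receptor on most cells, muscle fibres included, and sends transcription factors to the nucleus that bind gamma-activated sites in DNA. The complex that type I interferon forms binds interferon-stimulated response elements instead. The genes reached in this way encode GTPases that attack pathogen vacuoles, chemokines that draw T cells, and the machinery that shows peptides on MHC class I. Endurance training is known for another programme, with more mitochondria, more fat oxidation and a shift of fast fibres towards the more oxidative myosins.

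The gene counts deposited by the authors summed to 6223157, 5780945 and 5724370 in trained DTR+ muscle and to 5280045, 8655927 and 3359683 in sedentary DTR+ muscle. Sedentary DTR+ library 2 stood apart from the rest. It held counts for 17342 genes, against 19057 to 22079 in the other 11 libraries of the experiment, and its mean rank correlation with its own group was the lowest of all (Spearman 0.863). Results that rest on it are given with and without it. Mitochondrially encoded genes took 8.82%, 8.93% and 7.48% of counts in trained DTR+ muscle, against 5.15%, 8.01% and 5.21% in sedentary DTR+ muscle. The labels number the libraries without saying that each is a separate animal, so p-values measure the spread between these libraries. Foxp3 itself had 0 counts in each trained DTR+ library, against 0, 0 and 2 counts in sedentary DTR+ muscle, and a count of 0 allows up to 3 counts, or 0.347 to 0.893 CPM in these 6 libraries, for counting error only. At this depth the loss of Tregs cannot be checked from whole muscle. The 10 myofibre marker genes, among them the myosins and creatine kinase, summed to 174400 to 179800 CPM in trained DTR+ and to 198100 to 212100 CPM in sedentary DTR+ muscle, so the tissue was muscle as labelled. CPM, the counts of a gene scaled to the same total in each library, is the unit of every level below, and the fold changes are from counts after TMM scaling.

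After training, 123 genes rose and 155 fell in DTR+ quadriceps among 12579 tested, which is 2.21% of genes called at an adjusted p under 0.05 in edgeR's quasi-likelihood test (0.978% higher and 1.23% lower). Among the rises were interferon-inducible genes and genes of oxidative fibres and fuel use. Of the 123 genes, 41 belonged to 5 lists of interferon and antigen presentation genes, and 54 belonged to none of the 45 pathway and cell marker lists used. Of the 155 genes that fell, 0 belonged to those 5 lists and 142 belonged to no list. In DTR- quadriceps the same training raised 10 genes (0.0795%) and lowered 3 (0.0238%), in all 0.103% of genes, and 12 of these 13 were also called in the same direction in DTR+ muscle. Called or not, 101 of the 123 risen genes were also higher in trained DTR- muscle and 22 were lower. Of the 155 fallen genes, 56 were lower there and 99 were higher. In fits of 6 libraries alone the counts of calls in DTR+ and DTR- muscle lay closer together, as given below. A test of the difference between the training responses of DTR+ and DTR- muscle called 34 genes (0.27%), with 9 differences upward (0.0715%), all among the risen genes of DTR+ muscle, and 25 downward (0.199%), of which 24 were among the fallen genes. The difference contains the DTR+ response itself, from the same libraries, so this overlap is partly built in. The counts of called genes rested on single libraries. In DTR+ muscle 104 genes rose and 63 fell without trained library 1, 30 rose and 23 fell without trained library 2, and 381 rose and 468 fell without sedentary library 2, with 265 of the original 278 among the last. The test of the difference called 2 genes, Irgm2 and Phlda3, without trained DTR- library 1, and 149 genes without trained DTR+ library 3. As a base for counts given below, 1705 of the 12579 genes had an unadjusted p under 0.05 in DTR+ muscle. The number was 653 in DTR- muscle and 873 for the difference, and DESeq2 called 510, 34 and 99 genes.

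**Figure D1:**
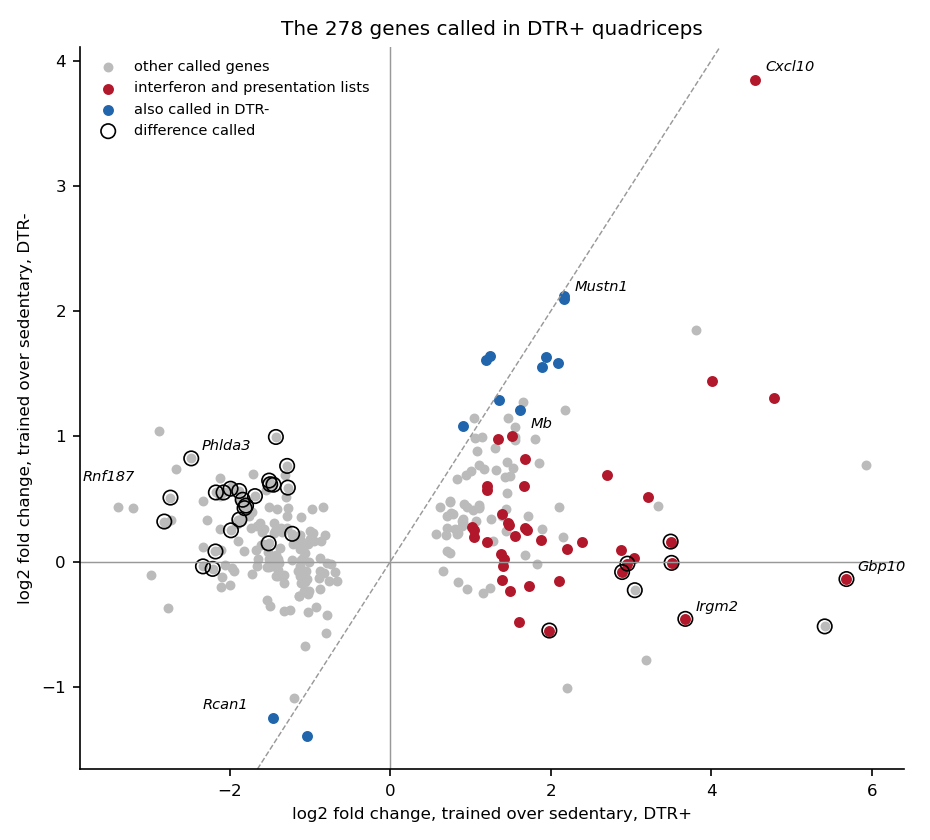
Training response of the 278 genes called in DTR+ quadriceps, as log2 fold change of trained over sedentary muscle in DTR+ mice (horizontal) and in DTR- mice (vertical), 1 point per gene. Interferon and presentation genes (red) spread along the horizontal axis to 5.69 for Gbp10, the 12 genes called in both genotypes (blue) lie along the dashed line of equal response, and circles mark the genes whose difference was called.

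Immunity-related GTPase genes rose to many times their sedentary level. In mice these interferon-inducible proteins load onto the vacuoles of intracellular pathogens, with Irgm1, Irgm2 and Igtp regulating effectors such as Iigp1. Irgm2 (chromosome 11, 58199618 to 58222782, GRCm38) stood at 264, 665 and 207 CPM in the 3 trained DTR+ libraries, against 35.8, 28.5 and 21.4 CPM in the sedentary ones. Igtp (chromosome 11, 58199556 to 58207591) had 264, 833 and 238 CPM in trained and 36.0, 44.8 and 31.8 CPM in sedentary DTR+ muscle. The groups did not overlap for either gene, and trained library 2 was the highest for both. Lack of overlap held for 122 of the 123 risen and 145 of the 155 fallen genes, against 15.7% of all genes tested. It was also a condition for naming the largest rises and falls, so here and below it adds no support to a call. Irgm2 rose by log2 3.68 ± 0.37 (SE, n = 3 each; edgeR, adjusted p = 2.55e-05) and Igtp by 3.50 ± 0.39 (edgeR, adjusted p = 6.18e-05). The annotated spans of Igtp and Irgm2 overlap on the same strand, so reads in the overlap may have been counted for either, but Irgm1, which stands elsewhere on the chromosome (chromosome 11, 48861968 to 48871683), rose as well, by 2.89 ± 0.35 (edgeR, adjusted p = 0.000145). Iigp1 (chromosome 18, 60376027 to 60392634) had 347, 952 and 279 CPM in trained DTR+ muscle and 65.3, 35.2 and 37.5 CPM in sedentary DTR+ muscle, a rise of 3.49 ± 0.39 (edgeR, adjusted p = 6.18e-05).

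In DTR- muscle none of these 4 GTPase genes was called by edgeR, at an unadjusted p under 0.05 or by DESeq2. Irgm2 had 14.1, 18.3 and 12.4 CPM in trained and 25.3, 18.1 and 15.2 CPM in sedentary DTR- muscle, and Iigp1 had 9.28, 11.8 and 16.2 CPM in trained and 7.59, 11.97 and 12.9 CPM in sedentary DTR- muscle. The test of the difference called all 4. It gave a log2 difference of 4.13 ± 0.51 for Irgm2 (edgeR, adjusted p = 0.00181), 3.52 for Igtp, 3.33 for Iigp1 and 2.97 for Irgm1. Sedentary DTR+ muscle lay above sedentary DTR- muscle in all 3 libraries for Igtp and Iigp1, a contrast that was not tested here. In the 3 IgG-treated trained DTR+ libraries, which did not enter the fit, Irgm2 had 73.2, 80.4 and 184 CPM and Iigp1 102, 123 and 228 CPM, for both genes below the 3 trained DTR+ libraries without antibody and above the 3 sedentary DTR+ libraries.

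**Figure D2:**
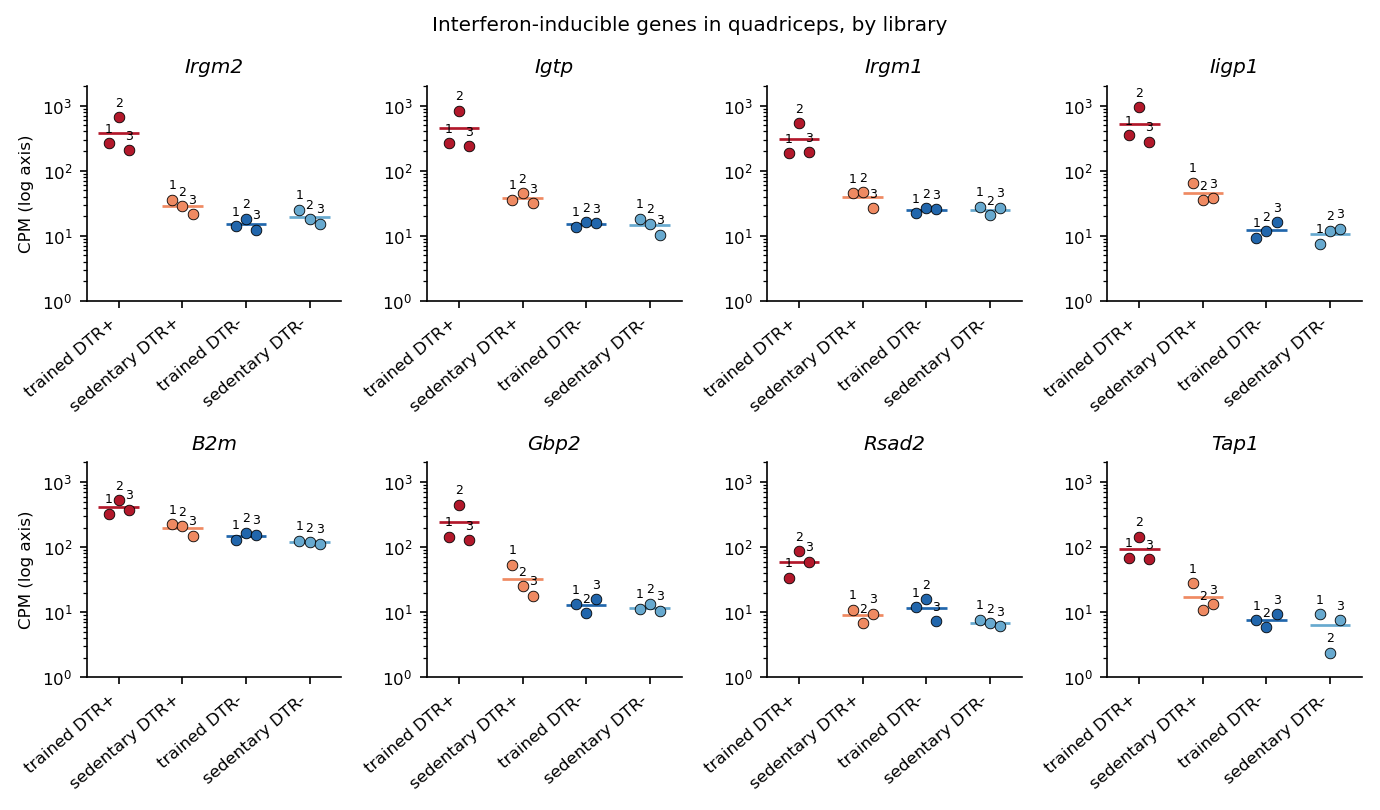
Level in CPM (log axis) of 8 interferon-inducible genes in each library, with the group mean as a bar and the replicate number above each point. The trained DTR+ libraries lie above all others, library 2 highest in each panel, and sedentary DTR+ libraries lie at or above the DTR- libraries for Iigp1 and Gbp2.

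The sequence at the start of these genes is shown for the patterns that interferon-activated factors are known to bind. RefSeq windows from 250 bases before to 50 bases after the start of transcription (GRCm38.p6) were searched on both strands for the interferon-stimulated response element written as GAAA, any 2 bases, GAAA, and the gamma-activated site written as TTCNNNGAA. Matches of the 2 patterns may overlap each other. A gene counts as holding a pattern if any of its windows does. A window was found for 28 of the 41 risen interferon and presentation genes. Of the 28, 14 held the response element, against 10.4% of the other risen genes, 3.91% of the fallen genes and 3.72% of the 9613 tested genes with a window. The 28 come from lists of interferon and presentation genes, and list members that did not rise were not counted apart. The comparison therefore cannot tell membership of the lists from the response to training. The gamma-activated site stood in 5 of the 28 (17.9%), against 8.27% of tested genes with a window. Counted by single windows and not by genes, it stood in 8.30% of all 32851 windows. The 5 include Irgm2 and Igtp, whose windows below are much alike in sequence. Other genes of the 28, among them Tap1, Cd274, Cxcl9 and H2-K1, held neither pattern. The windows below are those of 3 GTPase genes, of the antiviral gene Rsad2 and of the transcription factor gene Irf1. These genes were picked by hand, and where a gene had several windows the one with most matches is shown, so they are not typical of the set. Capitals mark every match to either pattern.
Irgm2 (chr11:58214727-58215026, plus strand): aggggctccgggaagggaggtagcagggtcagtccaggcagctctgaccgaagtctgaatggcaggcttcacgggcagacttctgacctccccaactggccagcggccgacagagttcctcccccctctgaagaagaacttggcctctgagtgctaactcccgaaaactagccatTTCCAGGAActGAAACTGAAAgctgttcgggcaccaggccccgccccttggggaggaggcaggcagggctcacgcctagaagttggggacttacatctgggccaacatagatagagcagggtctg
Igtp (chr11:58199306-58199605, plus strand): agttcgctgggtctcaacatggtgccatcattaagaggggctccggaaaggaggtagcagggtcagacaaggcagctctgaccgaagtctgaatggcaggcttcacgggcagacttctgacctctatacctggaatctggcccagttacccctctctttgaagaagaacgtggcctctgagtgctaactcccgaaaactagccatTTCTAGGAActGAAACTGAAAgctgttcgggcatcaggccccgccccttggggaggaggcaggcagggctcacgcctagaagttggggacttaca
Irgm1 (chr11:48871371-48871670, minus strand): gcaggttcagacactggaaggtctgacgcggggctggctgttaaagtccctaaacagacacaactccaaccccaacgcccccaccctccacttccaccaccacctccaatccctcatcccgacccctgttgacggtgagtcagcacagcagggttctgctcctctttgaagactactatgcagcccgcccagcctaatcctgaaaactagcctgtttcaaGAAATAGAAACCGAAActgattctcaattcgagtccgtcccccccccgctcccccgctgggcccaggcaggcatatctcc
Rsad2 (chr12:26456403-26456702, minus strand): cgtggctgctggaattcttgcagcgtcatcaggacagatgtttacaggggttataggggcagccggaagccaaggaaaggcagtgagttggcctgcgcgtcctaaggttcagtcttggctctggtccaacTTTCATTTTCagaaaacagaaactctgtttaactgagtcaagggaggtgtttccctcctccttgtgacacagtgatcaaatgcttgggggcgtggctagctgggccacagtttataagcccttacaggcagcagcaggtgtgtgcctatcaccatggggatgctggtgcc
Irf1 (chr11:53769764-53770063, plus strand): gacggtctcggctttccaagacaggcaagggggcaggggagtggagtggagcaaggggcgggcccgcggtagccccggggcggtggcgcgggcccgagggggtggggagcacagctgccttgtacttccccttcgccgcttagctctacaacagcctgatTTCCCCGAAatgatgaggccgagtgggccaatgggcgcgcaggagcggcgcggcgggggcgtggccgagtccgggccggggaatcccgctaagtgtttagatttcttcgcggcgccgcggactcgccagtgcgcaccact
Irgm2 and Igtp carried the same arrangement, a gamma-activated site followed closely by a response element, the pair beginning 75 and 64 bases before the start in Irgm2 and 45 and 34 bases before it in Igtp. The capitals of Irgm1 are 2 response elements that overlap. Rsad2 held 1 response element on the opposite strand, 120 bases before the start, and Irf1 held a gamma-activated site alone, 90 bases before it. A match is a pattern of letters and not a measured binding site.

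The wider interferon-gamma list, to which these GTPases belong, held more genes that rose. Of its 42 genes 37 passed the filter on low counts, and 23 of those rose and 0 fell, where 0.978% of all genes tested were called higher. The median log2 fold change of the 37 was 1.67, against -0.04 for all genes tested. Irf1 and Irf8, transcription factor genes that interferon-gamma induces, rose. Irf1 had 50.5, 113 and 60.8 CPM in trained and 24.1, 18.3 and 17.0 CPM in sedentary DTR+ muscle (1.88 ± 0.30; edgeR, adjusted p = 0.00171). Irf8 had 17.4, 35.6 and 25.7 CPM in trained and 8.52, 5.78 and 4.76 CPM in sedentary DTR+ muscle (1.98 ± 0.36; edgeR, adjusted p = 0.00538), with no overlap in either gene. In DTR- muscle 0 of the 37 were called by edgeR or by DESeq2, with 3 at an unadjusted p under 0.05 and a median of 0.02. The difference between the responses was called for 7 of the 37, among them Gbp10, Igtp, Irgm1, Irgm2, Iigp1 and Irf8.

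Guanylate-binding proteins, GTPases that lyse pathogen vacuoles together with the immunity-related GTPases, were the second GTPase family to rise, with 8 of 10 tested genes called. Gbp2 had 145, 452 and 128 CPM in trained DTR+ muscle, against 53.4, 24.95 and 17.9 CPM in sedentary DTR+ muscle (log2 2.88 ± 0.43; edgeR, adjusted p = 0.000832). Gbp6 had 34.5, 78.7 and 26.7 CPM in trained and 8.14, 2.77 and 6.55 CPM in sedentary DTR+ muscle (3.04 ± 0.41). Gbp10 had 26.8, 83.2 and 22.01 CPM in trained DTR+ muscle, and its 1.14, 0.116 and 1.79 CPM in sedentary DTR+ muscle lay near the limit of detection. For Gbp2, Gbp6 and Gbp10 the groups did not overlap. Gbp2b rose from counts near the same limit (3.19 ± 0.83; edgeR, adjusted p = 0.0485). The Gbp genes are close copies of each other, and Gbp4 and Gbp9 overlap on 1 strand, so their reads cannot be assigned to one member with certainty.

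Genes whose products act on T cells also rose. Cxcl9 and Cxcl10 encode ligands of CXCR3, the receptor that brings activated T cells into tissue. Cxcl9 had 8.20, 28.7 and 10.3 CPM in trained DTR+ and 1.70, 0.693 and 0.298 CPM in sedentary DTR+ muscle (log2 4.01 ± 0.70; edgeR, adjusted p = 0.00419). Cxcl10 had 8.20, 6.92 and 3.67 CPM in trained and 0, 0.231 and 0.595 CPM in sedentary DTR+ muscle (edgeR, adjusted p = 0.0309), and no size is given because each sedentary library lay under the floor of 3 counts. In DTR- muscle Cxcl10 had 0, 0.952 and 0 CPM in trained libraries and 0 in all 3 sedentary libraries, so its fitted change there of 3.85 is no measure of size. Ido1, which breaks down tryptophan and so restrains T cells, had 6.27, 73.7 and 10.3 CPM in trained DTR+ muscle, where library 2 held most of the counts, against 0.758, 1.62 and 0.298 CPM in sedentary DTR+ muscle. It rose by 4.78 ± 0.83 (edgeR, adjusted p = 0.00376), and without trained library 2 it was no longer called (edgeR, adjusted p = 0.168). Cd274, the gene of the checkpoint ligand PD-L1, had 53.7, 132 and 44.0 CPM in trained and 38.1, 16.5 and 16.1 CPM in sedentary DTR+ muscle and rose by 1.68 ± 0.37. In DTR- muscle Cd274 had 5.13, 6.28 and 5.89 CPM in trained and 3.37, 2.21 and 3.72 CPM in sedentary libraries, all below the lowest DTR+ library. The gap between the genotypes was thus present in sedentary muscle, a contrast that was not tested here. For Cd274 the difference between the training responses was 0.86 ± 0.60 and was not called (edgeR, adjusted p = 0.929). Il2rg, the shared chain of several lymphocyte cytokine receptors, rose by 3.33 ± 0.75 (edgeR, adjusted p = 0.0215), at 4.50, 7.61 and 6.81 CPM in trained and 0.947, 0 and 1.19 CPM in sedentary DTR+ muscle. The sedentary DTR+ values of Il2rg, Cxcl9 and Ido1 lay near the limit of detection, so the sizes of their rises are uncertain.

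Genes that show peptides on MHC class I rose as well. Of 16 class I genes tested, 10 rose and 0 fell, with a median log2 fold change of 1.04. Tap1, a subunit of the pump that carries peptides into the endoplasmic reticulum, had 68.5, 144 and 65.2 CPM in trained and 28.2, 10.7 and 13.4 CPM in sedentary DTR+ muscle (log2 2.39 ± 0.40; edgeR, adjusted p = 0.00285). B2m, the light chain of every class I molecule, stood at 327, 524 and 378 CPM in trained DTR+ muscle, against 225, 209 and 151 CPM in sedentary DTR+ muscle, and rose by 1.02 ± 0.21 (edgeR, adjusted p = 0.0117). Tapbp, which encodes the peptide-loading chaperone tapasin, rose by 1.05 ± 0.20, and H2-T23, a non-classical class I gene, by 2.20 ± 0.41. H2-T23 belongs to a family of near-identical genes, so the member that gave the reads is uncertain. Of the 5 immunoproteasome genes Psmb10 alone was called (1.20 ± 0.29; edgeR, adjusted p = 0.0356). Of 7 class II genes tested, the protease gene Ctss was called (1.21 ± 0.31; edgeR, adjusted p = 0.0439), and 4 had an unadjusted p under 0.05. With 1 DTR+ library left out edgeR called 6 of the 7 without sedentary library 2, 1 without trained library 3 and 0 when any one of the other 4 was left out. In DTR- muscle edgeR called 0 of the 7, with 3 at an unadjusted p under 0.05 and 1 called by DESeq2, and Cd74, the class II invariant chain, had a log2 change of 0.22 in DTR+ muscle, against 0.86 in DTR- muscle. In DTR- muscle 0 of the 16 class I genes were called by edgeR or DESeq2, and 0 had an unadjusted p under 0.05. The difference between responses was called by edgeR for 0 of the 16, with 10 at an unadjusted p under 0.05 and 1 called by DESeq2.

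Antiviral genes associated with type I interferon gave fewer calls. Of 37 tested, 6 rose and 0 fell (median log2 1.15), and in DTR- muscle 0 were called by edgeR or DESeq2, with 1 at an unadjusted p under 0.05. For the difference between the training responses 8 of the 37 were higher and 0 lower at an unadjusted p under 0.05, and DESeq2 called 1. Rsad2, which encodes the antiviral enzyme viperin, had 33.7, 86.7 and 60.1 CPM in trained DTR+ and 10.98, 6.82 and 9.52 CPM in sedentary DTR+ muscle (log2 2.7 ± 0.33; edgeR, adjusted p = 0.000145). Ifit3, a binder of viral RNA complexes, rose by 1.56 ± 0.32, Stat2 by 1.48 ± 0.29 and Rtp4 by 1.47 ± 0.27. Rsad2, Ifit3, Stat2 and Rtp4 did not overlap between trained and sedentary DTR+ libraries, which held for 15.7% of all genes tested. Many genes respond to both interferons, so the lists do not separate their sources.

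Over the 5 interferon and presentation lists together, 41 of 102 tested genes rose and 0 fell. In 40 of the 41 trained library 2 held the highest level. Without trained library 2, 12 of the 102 were called, 10 of them in the interferon-gamma list and 1 in the class I list where all libraries gave 23 and 10, and the median over the 102 was 0.87 in place of 1.23. Ifng itself had 1, 0 and 1 counts in trained DTR+ and 0 counts in each sedentary DTR+ library. Of the 25 T and NK cell markers 2 passed the filter and 0 were called by edgeR or DESeq2, with 0 at an unadjusted p under 0.05, while their summed level was 17.0 to 30.3 CPM in trained DTR+ against 8.63 to 12.9 CPM in sedentary DTR+ muscle. Klrb1c was at 0 in the trained DTR+ group, and Cd3d, Cd4, Trbc1, Cd5 and Ifng were at 0 in the sedentary DTR+ group. In DTR- muscle that sum was 6.66 to 13.6 CPM in trained and 7.16 to 9.31 CPM in sedentary libraries. Macrophage markers summed to 967 to 1318 CPM in trained DTR+ and to 898 to 1000 CPM in sedentary DTR+ muscle. The part of these cells in the interferon result was not tested, and in whole muscle more cells of a type cannot be told apart from more RNA per cell.

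**Figure D3:**
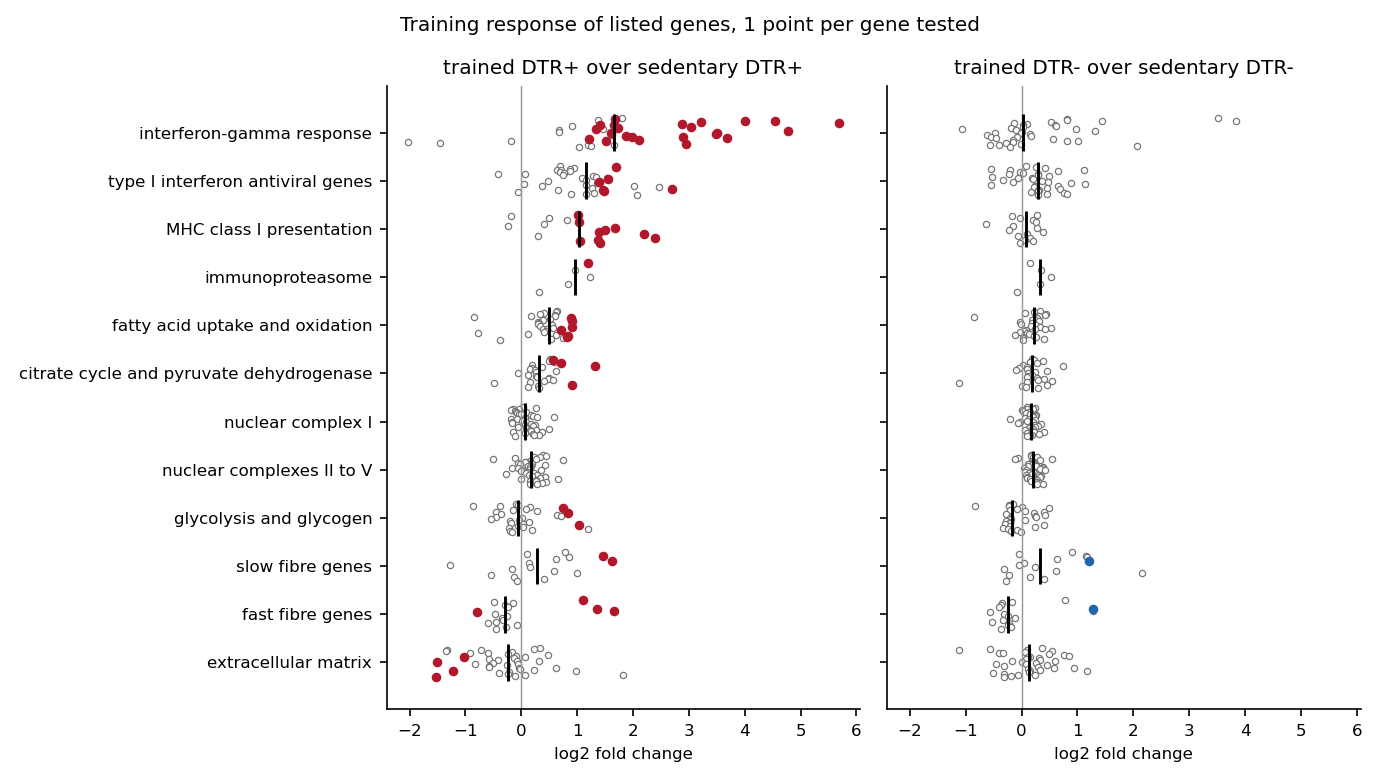
Log2 fold change of every tested member of 12 lists, trained over sedentary, in DTR+ (left) and DTR- muscle (right), with filled points for genes called by edgeR and a black bar at the median of the list. The interferon-gamma list has its median at 1.67 in DTR+ and 0.02 in DTR- muscle, and the fatty acid list has its median at 0.49 in DTR+ and 0.22 in DTR- muscle.

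Training also changed contractile and stress genes, many of them in both genotypes. The 12 genes called in both genotypes were Fhl1, Mb, Myom3, Mustn1, Myh1, Hspb7, H19, Acly, Mid1ip1 and Uchl1, which rose, and Rcan1 and B230312C02Rik, which fell. For none of the 12 was the difference between the genotypes called by edgeR. Mb encodes myoglobin, the oxygen store of oxidative fibres (chromosome 15, 77015487 to 77050670). It had 1404, 2193 and 2069 CPM in trained DTR+ muscle, against 679, 529 and 585 CPM in sedentary DTR+ muscle. Its rise was 1.62 ± 0.18 in DTR+ (edgeR, adjusted p = 6.18e-05) and 1.21 ± 0.18 in DTR- muscle (edgeR, adjusted p = 0.00561), with a difference of 0.41 ± 0.25 (edgeR, adjusted p = 0.884). Fhl1, a LIM protein of the sarcomere singled out after its values were seen, had the smallest p of all genes that rose in DTR- muscle and rose by 1.89 ± 0.19 in DTR+ and 1.55 ± 0.18 in DTR- muscle.

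The adult fast myosins moved in opposite directions. Myh1, the IIx heavy chain, had 5187, 7333 and 7651 CPM in trained DTR+ and 2957, 1876 and 2891 CPM in sedentary DTR+ muscle and rose by 1.36 ± 0.18 (edgeR, adjusted p = 0.000382). Myh2, the IIa chain of the more oxidative fast fibres, had 1719, 3718 and 3574 CPM in trained and 944, 834 and 1001 CPM in sedentary DTR+ muscle and rose by 1.66 ± 0.25 (edgeR, adjusted p = 0.00107). Myh4, the IIb chain of the fastest glycolytic fibres, fell (log2 -0.80 ± 0.14; edgeR, adjusted p = 0.00473), at 22703, 18502 and 19291 CPM in trained against 35966, 29138 and 37641 CPM in sedentary DTR+ muscle. None of these 3 myosins overlapped between the groups. In DTR- muscle Myh1 was called (1.29 ± 0.18; edgeR, adjusted p = 0.004), while Myh2 (1.28 ± 0.25; edgeR, adjusted p = 0.0528) and Myh4 (-0.57 ± 0.14; edgeR, adjusted p = 0.29) were not. The differences between the genotypes were 0.07 ± 0.25, 0.38 ± 0.35 and -0.23 ± 0.20 for Myh1, Myh2 and Myh4, none of them called. The myosin genes are close copies, so a share of their reads may have gone to another member or been dropped.

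**Figure D4:**
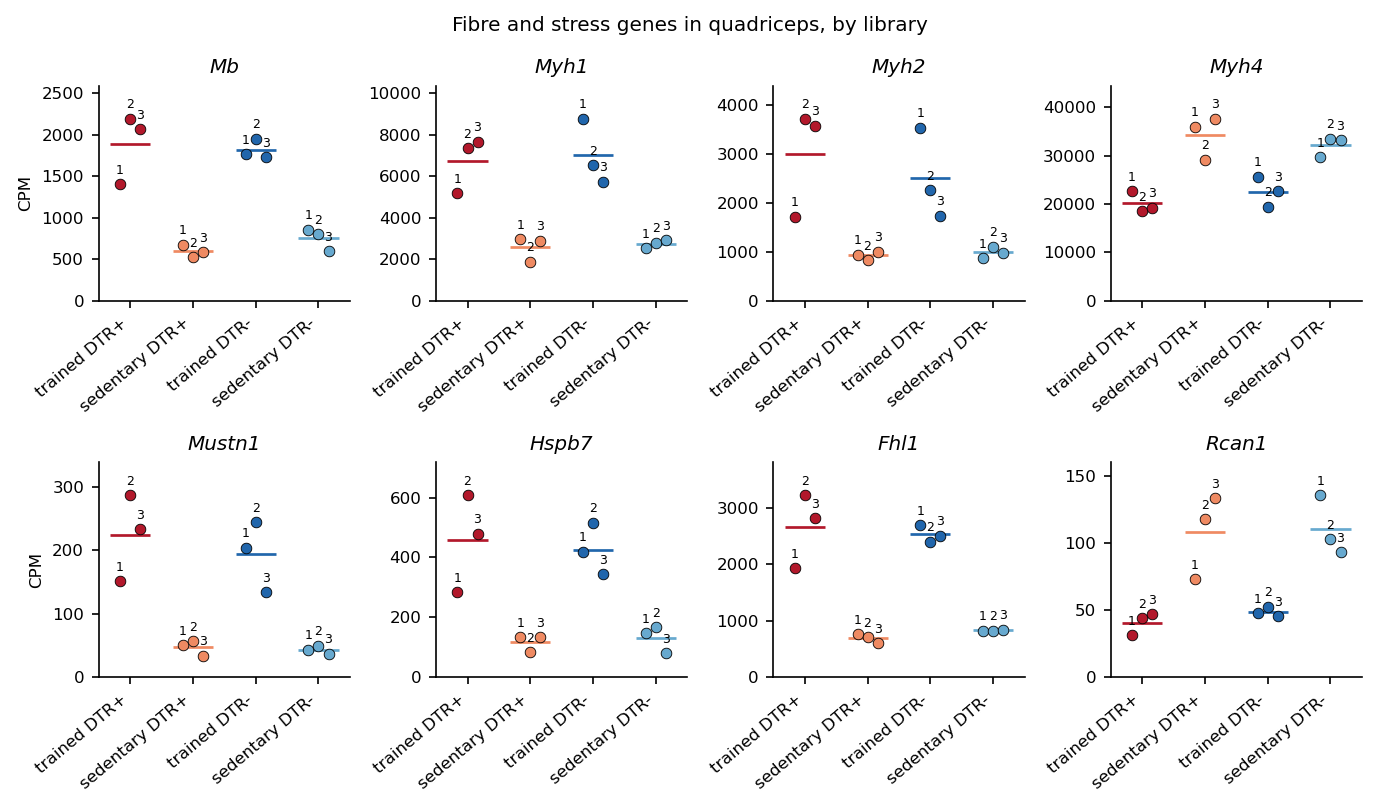
Level in CPM of 8 fibre and stress genes in each library (linear axis from 0), with the group mean as a bar and the replicate number above each point. Trained libraries of both genotypes lie apart from their sedentary libraries in the same direction, upward for Mb, Myh1, Myh2, Mustn1, Hspb7 and Fhl1 and downward for Myh4 and Rcan1.

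Of the 17 fast fibre genes 3 rose and 1 fell, and besides the myosins the gene that rose was Actn2, an alpha-actinin found in all fibre types (1.11 ± 0.17; edgeR, adjusted p = 0.0011). Of 16 slow fibre genes tested 2 rose, Mb and the calcium store gene Casq2 (1.47 ± 0.25; edgeR, adjusted p = 0.00304). The slow myosin Myh7 averaged 174 ± 38.7 CPM in trained and 154 ± 40.3 CPM in sedentary DTR+ muscle (SD, n = 3 each) and was not called (edgeR, adjusted p = 0.89). Hspb7, a small heat shock protein of muscle, rose by 1.95 ± 0.27 in DTR+ and 1.63 ± 0.27 in DTR- muscle. Mustn1, a gene of muscle growth and regeneration, had 152, 287 and 233 CPM in trained and 50.2, 57.0 and 34.2 CPM in sedentary DTR+ muscle and rose by 2.17 ± 0.27, with 2.10 ± 0.27 in DTR- muscle. Rcan1, an inhibitor of the calcium-activated phosphatase calcineurin, fell in both genotypes, with log2 -1.46 ± 0.23 in DTR+ and -1.25 ± 0.23 in DTR- muscle. Embryonic myosin Myh3 stood at 2.25, 2.77 and 8.91 CPM in trained and 0.189, 2.31 and 1.49 CPM in sedentary DTR+ muscle and was not called (edgeR, adjusted p = 0.369). Myostatin, Mstn, the brake on muscle growth, was at 97.8 ± 14.7 CPM in trained and 80.8 ± 11.8 CPM in sedentary DTR+ muscle (SD, n = 3 each; edgeR, adjusted p = 0.63).

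Fuel genes followed with smaller steps. Of 32 genes of fatty acid uptake and oxidation tested, 6 rose and 0 fell (median log2 0.49). Decr1, which encodes an auxiliary enzyme for unsaturated fats, had 151, 172 and 162 CPM in trained DTR+ and 84.5, 75.7 and 92.3 CPM in sedentary DTR+ muscle (log2 0.91 ± 0.16; edgeR, adjusted p = 0.00457). Cd36, the fatty acid transporter, had 511, 635 and 551 CPM in trained and 357, 260.3 and 274 CPM in sedentary DTR+ muscle (0.89 ± 0.17; edgeR, adjusted p = 0.00647). Etfdh, which passes electrons from fat oxidation to the respiratory chain, rose by 0.91 ± 0.19 and Pnpla2, the lipase of fat droplets, by 0.84 ± 0.20. The carnitine carrier gene Slc25a20 (0.81) and Hadha (0.70), of the trifunctional protein, were the other members called. With each DTR+ library left out in turn, Slc25a20 was called in 1 and Hadha in 3 of the 6 fits. The lipid droplet gene Plin1, made by adipocytes, fell to 0.321, 0.519 and 1.398 CPM in trained DTR+ muscle, against 5.49, 2.89 and 7.14 CPM in sedentary DTR+ muscle (edgeR, adjusted p = 0.023). Other adipocyte genes went both ways and were not called, among them Adipoq (-0.39), Cidec (-0.19), Plin4 (0.41) and Lep (0.84).

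Of 27 genes of the citrate cycle and pyruvate dehydrogenase 4 rose and 0 fell (median 0.31). Got2, the mitochondrial aspartate aminotransferase, was the steepest, with 377, 487 and 455 CPM in trained DTR+ and 194, 133 and 191 CPM in sedentary DTR+ muscle (log2 1.32 ± 0.23; edgeR, adjusted p = 0.00376). Cs, citrate synthase, rose by 0.57 ± 0.14 and Dlst, a subunit of the oxoglutarate dehydrogenase, by 0.71 ± 0.16. Pdp1, the phosphatase that switches pyruvate dehydrogenase on, had 170.3, 175 and 183 CPM in trained and 87.7, 74.5 and 113 CPM in sedentary DTR+ muscle (0.92 ± 0.17; edgeR, adjusted p = 0.00631). Ppp1r3c, which targets a phosphatase to glycogen, had 854, 919.7 and 903 CPM in trained and 501, 338 and 447 CPM in sedentary DTR+ muscle (1.03 ± 0.16; edgeR, adjusted p = 0.00118). Hk2, the main hexokinase of muscle, rose by 0.83 ± 0.18 and the glycogen branching gene Gbe1 by 0.75 ± 0.19. Gpt, which makes alanine from pyruvate, had 56.9, 86.7 and 69.5 CPM in trained and 22.3, 24.4 and 22.9 CPM in sedentary DTR+ muscle (1.56 ± 0.20; edgeR, adjusted p = 0.00035). For Got2, Pdp1, Ppp1r3c and Gpt the trained and sedentary libraries did not overlap, as in 122 of the 123 risen genes. Got1 (0.70 ± 0.17), the cytosolic aspartate aminotransferase, Bckdha (0.90 ± 0.23), of branched-chain amino acid breakdown, and Dgat2 (0.96 ± 0.20), which makes triglyceride, rose as well. Lipid synthesis had 2 genes called of 22 tested, Dgat2 and Acly, the enzyme that turns citrate into acetyl-CoA (1.24 ± 0.28 in DTR+ and 1.65 ± 0.28 in DTR- muscle).

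The respiratory chain gave another picture. Of 41 nuclear complex I genes 0 were called by edgeR in DTR+ muscle (2 at an unadjusted p under 0.05, 1 by DESeq2), with a median log2 fold change of 0.06. For complexes II to V, edgeR called 0 of 43 nuclear genes (7 at an unadjusted p under 0.05, 3 by DESeq2), with a median of 0.18, and of 11 mitochondrially encoded mRNAs 0 were called (3 and 2), with a median of 0.33. In DTR- muscle 0 complex I genes were called by edgeR or DESeq2 (0 at an unadjusted p under 0.05), with a median of 0.17. These values turned on sedentary library 2: without it 21 of 41 complex I genes, 32 of 43 in complexes II to V and 4 of 11 mitochondrially encoded mRNAs were higher and called in trained DTR+ muscle, with medians of 0.53, 0.59 and 0.75. Without that library 17 fatty acid genes and 13 citrate cycle genes were called, while without trained library 2 these lists had 0 and 1 calls. Ppargc1a, the coactivator of mitochondrial genes, had 59.6, 50.7 and 61.8 CPM in trained DTR+ and 41.7, 14.9 and 37.5 CPM in sedentary DTR+ muscle (log2 0.88 ± 0.25; edgeR, adjusted p = 0.0738), and sedentary library 2 held the lowest value. The difference between the genotypes was called by edgeR or DESeq2 for 0 genes of the respiratory, citrate cycle and fatty acid lists, with 6 fatty acid genes and 1 mitochondrially encoded mRNA at an unadjusted p under 0.05.

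Several genes often cited for exercise did not pass the test. Pdk4, the kinase that shuts off pyruvate dehydrogenase, had 239, 142 and 61.1 CPM in trained DTR+ and 354, 95.5 and 173 CPM in sedentary DTR+ muscle (edgeR, adjusted p = 0.727). Ucp3, an uncoupling protein, had 34.9, 21.6 and 22.9 CPM in trained and 36.6, 27.4 and 37.8 CPM in sedentary DTR+ muscle (edgeR, adjusted p = 0.663). Vegfa, the growth factor for capillaries, had 2.57, 1.73 and 1.05 CPM in trained and 1.70, 1.62 and 4.46 CPM in sedentary DTR+ muscle (edgeR, adjusted p = 0.834), while Pecam1, a marker of endothelium, rose by 0.74 ± 0.17 (edgeR, adjusted p = 0.0291). Angpt1, an angiopoietin that steadies vessels, rose by 1.49 ± 0.38 (edgeR, adjusted p = 0.0463). The 15 endothelial markers summed to 1163 to 1560 CPM in trained DTR+ and 859 to 1030 CPM in sedentary DTR+ muscle. They did not move as 1: 7 were higher at an unadjusted p under 0.05, while Cdh5 (0.15), Kdr (-0.05), Vwf (-0.03) and Eng (0.18) changed little. The sum includes Ly6a and Ly6c1, at means of 184 and 175 CPM in trained and 104 and 91.4 CPM in sedentary DTR+ muscle. In DTR- muscle 7 of the 15 were also higher at an unadjusted p under 0.05. Across 11 lists with no call by edgeR, among them clock, atrophy, cell cycle and neuromuscular junction genes, 42 of 266 tested genes had an unadjusted p under 0.05 and 13 were called by DESeq2. Over all 12579 genes tested in DTR+ muscle, 1705 had an unadjusted p under 0.05 and DESeq2 called 510.

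The 155 genes that fell had many different functions. Phlda3, a p53-inducible inhibitor of AKT (chromosome 1, 135766119 to 135769136), had 22.5, 19.0 and 28.6 CPM in trained DTR+ muscle and 93.6, 142 and 139.9 CPM in sedentary DTR+ muscle. It fell (log2 -2.48 ± 0.34; edgeR, adjusted p = 0.000527) with no overlap. Rnf187, a ubiquitin ligase (chromosome 11, 58932288 to 58938916), had 18.5, 18.5 and 38.6 CPM in trained and 139, 194 and 146 CPM in sedentary DTR+ muscle and fell (-2.74 ± 0.39; edgeR, adjusted p = 0.000602). Adssl1, the muscle enzyme of purine nucleotide cycling, had 289, 216 and 730.0 CPM in trained DTR+ muscle, against 1764, 2219 and 1935 CPM in sedentary DTR+ muscle (-2.33 ± 0.34; edgeR, adjusted p = 0.000777). In each of these 3 genes trained library 3 was the highest of the trained DTR+ libraries. Vapa (-2.21 ± 0.31), a tether between the endoplasmic reticulum and other membranes, Timm29 (-1.84 ± 0.27), a subunit of a mitochondrial import complex, and Upf3a (-2.82 ± 0.45), a factor of nonsense-mediated decay, fell as well. So did Lsm4 (-2.34 ± 0.42), which binds spliceosomal and decay RNAs, the acyl-CoA binding gene Acbd6 (-2.33 ± 0.46), and Nsmce3 (-2.81 ± 0.58), of the SMC5/6 complex that repairs DNA. Genes at lower levels with large falls were the potassium channel gene Kcna7 (-2.67 ± 0.55), the transcription factor gene Tbx1 (-2.73 ± 0.59), the co-activator gene Cited4 (-3.40 ± 0.64), Scand1 (-2.89 ± 0.73), Ccdc85b (-2.28 ± 0.51) and Pithd1 (-2.18 ± 0.32). Ier2, an immediate early gene, had 2.73, 0.865 and 6.64 CPM in trained DTR+ and 12.7, 16.8 and 8.33 CPM in sedentary DTR+ muscle (-1.99 ± 0.51; edgeR, adjusted p = 0.0453).

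Several of these genes also varied within trained DTR- muscle. Phlda3 had 135, 79.2 and 33.4 CPM in trained DTR- and 51.0, 43.1 and 38.4 CPM in sedentary DTR- muscle, and Rnf187 had 193, 129 and 41.4 CPM in trained and 74.2, 82.1 and 85.3 CPM in sedentary DTR- muscle. The differences between the training responses were -3.30 ± 0.47 for Phlda3 (edgeR, adjusted p = 0.00779), -3.25 ± 0.53 for Rnf187 (edgeR, adjusted p = 0.0143) and -2.33 ± 0.37 for Timm29 (edgeR, adjusted p = 0.0137). Lamp1, a membrane protein of lysosomes, was also called (-2.07 ± 0.35), at 123, 104 and 213 CPM in trained and 351, 389.9 and 421 CPM in sedentary DTR+ muscle, and at 506, 396 and 225 CPM in trained and 244, 225 and 232 CPM in sedentary DTR- muscle. So were Rac1 (-2.25 ± 0.41), a small GTPase of the cytoskeleton and of glucose uptake, and Adipor1 (-1.66 ± 0.30), a receptor for adiponectin. For all 6 of these genes trained DTR- library 1 stood above the sedentary DTR- libraries and library 3 was the lowest of the trained DTR- group. Over the 155 genes the median log2 level, relative to the mean of the 12 libraries, was -0.92, -1.08 and -0.41 in trained DTR+, 0.42, 0.50 and 0.77 in sedentary DTR+, 0.56, 0.34 and -0.21 in trained DTR- and 0.11, 0.12 and 0.08 in sedentary DTR- muscle. The genes were chosen for the contrast of the first 2 groups, so their order there is no finding, and the DTR- libraries entered the shared estimate of error behind that choice. In the IgG-treated trained DTR+ libraries the medians were -0.96, -0.98 and -0.45. The fallen genes had a median transcript length of 2694 bases and a median GC content of 52.9%, against 3413 bases and 49.4% over all genes tested, and 149 of the 155 were still called once trends on length and GC content were removed from each library.

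**Figure D5:**
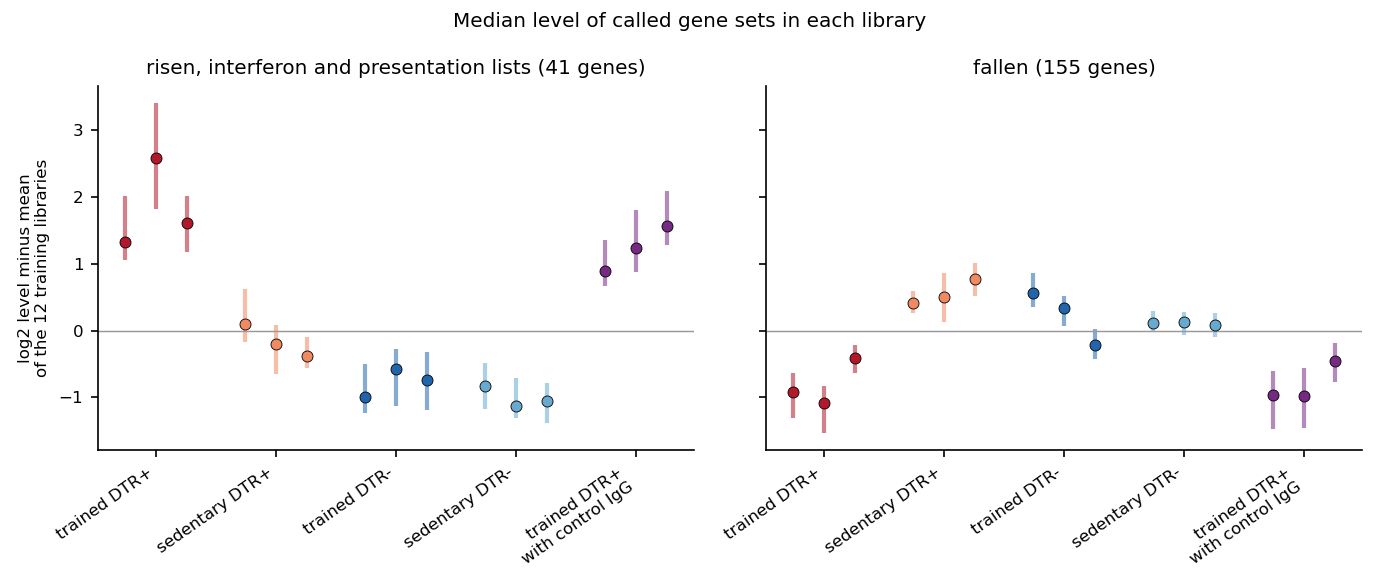
Median (point) and quartiles (line) of the log2 level, relative to the mean of the 12 training libraries, of the 41 risen interferon and presentation genes (left) and the 155 fallen genes (right), 1 position per library. The interferon genes are high in trained DTR+ libraries with or without IgG, and the fallen genes range from 0.56 to -0.21 within trained DTR- muscle; the genes were chosen for the DTR+ contrast in the joint fit of 12 libraries.

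Matrix, stromal and immune-cell genes made up a small share of the falls. Of 38 extracellular matrix genes tested, 4 fell and 0 rose (median -0.23), and without trained library 1 or trained library 2 edgeR called 0 of them, with 5 called by DESeq2 on all libraries. Tnc, the matrix glycoprotein tenascin-C, had 6.43, 4.50 and 8.21 CPM in trained DTR+ and 21.2, 10.6 and 23.5 CPM in sedentary DTR+ muscle (log2 -1.53 ± 0.33; edgeR, adjusted p = 0.0151). Col5a1 had 18.2, 14.2 and 18.3 CPM in trained and 27.3, 24.7 and 51.2 CPM in sedentary DTR+ muscle (-1.03 ± 0.24), and Eln, elastin (-1.52 ± 0.39), and Serpinh1, the collagen chaperone (-1.22 ± 0.31), fell as well. Cxcl14, a chemokine of fibro-adipogenic cells, fell (-1.06 ± 0.23; edgeR, adjusted p = 0.0171) and was the called gene among 13 tested in the chemokine list, which leaves out Cxcl9 and Cxcl10, held in the interferon-gamma list. C1qc, a complement gene of macrophages, had 3.70, 7.96 and 14.0 CPM in trained DTR+ muscle, against 19.9, 39.4 and 37.2 CPM in sedentary DTR+ muscle (-1.99 ± 0.41; edgeR, adjusted p = 0.0117). Of the 23 macrophage markers tested, 17 had a higher level in trained DTR+ muscle, with 2 higher and 1 lower at an unadjusted p under 0.05, and C1qc was the one edgeR called, while DESeq2 called 1 higher and 1 lower. Plvap, a gene of fenestrated endothelium, fell to 2.25, 3.46 and 5.76 CPM in trained DTR+ muscle, against 18.6, 13.9 and 15.8 CPM in sedentary DTR+ muscle (edgeR, adjusted p = 0.00621). Ighm, the immunoglobulin M heavy chain of B cells and the only B cell marker of 10 that was tested, had 78.9, 57.8 and 58.7 CPM in trained DTR+ and 108, 168 and 135 CPM in sedentary DTR+ muscle (-1.14 ± 0.22; edgeR, adjusted p = 0.00694). Adipocyte markers, whose sum was dominated by Car3, a carbonic anhydrase also made by muscle fibres, summed to 1492 to 1708 CPM in trained DTR+ and 2281 to 3740 CPM in sedentary DTR+ muscle. Without Car3 the other 9 markers summed to 272 to 331 CPM in trained DTR+ and 271 to 434 CPM in sedentary DTR+ muscle, which overlapped. Of 9 adipocyte markers tested Car3 and Plin1 were called, while Adipoq (-0.39), Cfd (-0.53), Plin4 (0.41) and Lep (0.84) were not, and the part of adipocytes in the result was not tested.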

How the data were processed

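Per the labels' protocols, RNA of whole frozen quadriceps was isolated with TRIzol, and 2 ng of it went into a library under the ImmGen procedure for very small inputs. Reads were aligned to mm10 with STAR 2.7.3a and counted per gene with featureCounts, per the submitters' processing notes; not given in the sources used here: its version, annotation, strand setting and handling of reads with several placements. The authors deposited raw counts for 55011 gene symbols in 61 libraries, each replicate separate. Of the symbols 53009 matched GENCODE vM21, which gave coordinates, and promoter sequence is from RefSeq (GRCm38.p6).

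From these counts 12 libraries, 3 in each of 4 groups, were fitted together with edgeR 4.0.16 in R 4.3.3: the filter kept 12579 genes (minimum count 10, minimum total 15), TMM scaled the libraries, and a quasi-likelihood test gave 3 comparisons, the training response in DTR+ muscle, that in DTR- muscle, and their difference. Genes with a Benjamini-Hochberg adjusted p under 0.05 over all genes tested are said to rise, fall or be called; all such p-values are from edgeR unless named otherwise, and SE is the log2 fold change over the square root of F. The test was checked on simulated data. CPM are counts over the library total. Genes named are the 15 largest rises and falls (a mean of 5 CPM or more in one of the groups, libraries that do not overlap, an established symbol), up to 4 called members per list, 8 genes for the difference and a fixed set; Irf1, Irf8, Cd274, Fhl1, Slc25a20, Hadha, Lamp1, Rac1, Adipor1, Myh7 and those under other observations were chosen after their values were seen. The groups, lists and members were chosen with earlier results of these data known. Alternatives were DESeq2 1.42.0, its size factors, other filters, a replicate block, removal of length and GC trends, the 6 compared libraries alone, and leaving out each library. No pair of libraries agreed within counting noise (chi-square per degree of freedom 4.04 to 73.1). A gene of the fixed set is not reported here.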

Additional observations from a re-analysis of the deposited data

Results flagged for a closer look

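The response to training differed between DTR+ and DTR- quadriceps, by the test of the difference itself, for 34 of 12579 genes (edgeR, adjusted p under 0.05; 99 by DESeq2). Upward differences among the 8 genes of smallest p were log2 4.13 for Irgm2, 3.52 for Igtp, 2.97 for Irgm1, 3.33 for Iigp1 and 5.93 for the predicted gene Gm12185. Gm12185 averaged 79.0 ± 56.0 CPM in trained DTR+ muscle and 1.68 ± 0.43 CPM in sedentary DTR+ muscle, and 0.93 ± 0.25 CPM in trained DTR- and 1.3 ± 1.0 CPM in sedentary DTR- muscle (SD, n = 3 each). Gbp10, Irf8 and BC023105 were among the other upward differences. The downward differences among the 8 were -3.30 for Phlda3, -3.25 for Rnf187 and -2.33 for Timm29. Of 25 downward differences, 1 belonged to a gene not called in DTR+ muscle, Acsl3, which loads long fatty acids onto coenzyme A (-2.76 ± 0.51; edgeR, adjusted p = 0.025). Trained DTR- library 1 was the highest library of its group for Phlda3, Rnf187 and Timm29, and its part in the result was not tested beyond the fit without it, which called Irgm2 and Phlda3 alone.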

How the results depend on the processing

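In DTR+ muscle the count of 278 called genes became 510 with DESeq2, 511 with no filter on low counts, 436 with length and GC trends removed and 91 in a fit of the 6 compared libraries alone, and it ran from 53 to 849 when 1 library was left out. In DTR- muscle the count of 13 became 34 with DESeq2, 45 with no filter, 20 with trends removed and 60 in the 6 libraries alone, and it ran from 3 to 9 with 1 library left out (3 without sedentary library 1 or 3, 4 without trained library 1 or 2, 6 without sedentary library 2). The 34 called differences became 99 with DESeq2 and 147 with no filter, and ran from 2 to 149 with 1 library left out: 2, 5 and 67 without trained DTR- library 1, 2 and 3, 12, 11 and 149 without trained DTR+ library 1, 2 and 3, 4, 4 and 3 without sedentary DTR- library 1, 2 and 3, and 56 without sedentary DTR+ library 2. The cause of these shifts was not tested. DESeq2 size factors and a minimum count of 30 kept all 3 counts within 1.5 times, and no named gene that was called changed sign under any alternative run. In every fit with a DTR+ library left out 30 of the 123 risen and 22 of the 155 fallen genes were called.

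The labels give the groups the same replicate numbers, without saying that a number marks a shared cage, day or batch. Deviations of same-numbered libraries correlated at 0.007, 0.11 and 0.13 in DTR+ muscle and at -0.206, -0.072 and -0.057 in DTR- muscle, so the numbers were not taken to pair libraries, although each trained DTR+ library correlated best with its own number. With a replicate block 248 genes were called in DTR+ muscle, 9 in DTR- muscle and 22 for the difference, and with the block and trends removed together 367, 14 and 22.

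Foxp3 and Ifng had at most 2 counts in any DTR+ library, and a count of 0 in a library allows a level of up to 0.347 to 0.893 CPM. Values of sedentary DTR+ library 2 affect the respiratory chain lists and those of trained DTR+ library 2 the interferon lists.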

Other observations

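Among the 54 risen genes in no list were several at high levels in muscle. Mybpc1, which encodes slow myosin-binding protein C, had 2566, 3245 and 3053 CPM in trained DTR+ muscle and 1585, 1054 and 1416 CPM in sedentary DTR+ muscle (log2 1.10 ± 0.15; edgeR, adjusted p = 0.000527). Coq8a, needed for coenzyme Q synthesis, had 1655, 2288 and 2028 CPM in trained and 1059, 764 and 773 CPM in sedentary DTR+ muscle (1.16 ± 0.17; edgeR, adjusted p = 0.000602). Ckmt2, the mitochondrial creatine kinase of muscle, rose by 0.95 ± 0.21 and Tfrc, the receptor that takes up iron, by 1.56 ± 0.29. None of these 4 was called in DTR- muscle, where the changes were 0.44, 0.74, 0.69 and 1.07, and none of the differences between the genotypes was called.

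Other genes outside the lists rose as well. Dtx3l and Parp9, partners in a ubiquitin ligase complex that overlap on opposite strands, averaged 43.2 ± 21.6 and 41.8 ± 21.8 CPM in trained DTR+ and 11.5 ± 2.79 and 12.9 ± 5.04 CPM in sedentary DTR+ muscle (SD, n = 3 each). Serpinb9, an inhibitor of granzyme B, rose by 2.15 ± 0.44 (edgeR, adjusted p = 0.0114) and Apobec3, a restriction factor of retroviruses, by 1.71 ± 0.33 (edgeR, adjusted p = 0.00792). The predicted gene Gm4841 averaged 206 ± 163 CPM in trained and 3.85 ± 2.96 CPM in sedentary DTR+ muscle (5.93 ± 0.61; edgeR, adjusted p = 3.17e-05).

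Other genes outside the lists fell. Rps2, of the small ribosomal subunit, had 39.0, 27.2 and 167 CPM in trained DTR+ muscle, where library 3 lay near the DTR- libraries, and 236, 269 and 239 CPM in sedentary DTR+ muscle. Its log2 change was -1.76 ± 0.43 (edgeR, adjusted p = 0.0359), while in DTR- muscle it had 302, 287 and 147 CPM in trained and 194, 183 and 167 CPM in sedentary libraries. Eif3f, an initiation factor subunit, fell as well (-1.89 ± 0.34; edgeR, adjusted p = 0.00476). Tigar, a phosphatase that slows glycolysis, was the only gene called in DTR- and not in DTR+ muscle, with 37.9, 29.8 and 35.1 CPM in trained DTR+, 52.5, 46.8 and 52.4 CPM in sedentary DTR+, 30.8, 31.97 and 29.6 CPM in trained DTR- and 52.7, 60.8 and 55.3 CPM in sedentary DTR- muscle. Its change was -0.60 ± 0.18 in DTR+ (edgeR, adjusted p = 0.0838) and -0.93 ± 0.18 in DTR- muscle (edgeR, adjusted p = 0.0447), and the difference was not called (edgeR, adjusted p = 0.93).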
